A study of Mus musculus with 7 samples.

Results

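Cytosolic ribosomal protein genes encode the proteins of the small and large subunits of the ribosome in the cytosol. They were taken here as every probe set of the array whose single gene symbol in the platform annotation has the form of an Rpl, Rplp, Rps or Rpsa gene, which leaves out the S6 kinases. The rule gave 96 of the 22690 probe sets in the table, and they measure 45 of the 12394 genes named by a single symbol. Of these genes, 24 belong to the large subunit (43 probe sets) and 21 to the small subunit (53 probe sets). No measured value entered the rule. Another 102 probe sets carry several symbols that include a ribosomal protein gene; they were not taken as members, since no single gene can be named for them.

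The study compared 2 transplantable mouse mammary tumour lines on 1-colour Affymetrix expression arrays, 3 arrays of Met1 tumours and 4 of DB7 tumours. Frozen tumour was the source of the total RNA on every array. The series' design text speaks instead of first-generation crosses of AKR/J and DBA/2J mice with PyMT animals, which carry the polyoma middle T oncogene; the sample labels, which say transplant tumour for both groups, were followed. As background, both lines come from FVB mice in which the mammary tumour virus promoter drives middle T, and DB7 carries a form of it with lost docking sites for signalling adaptors. The sources used here do not give the host strain, its age, the passage of each line or any pooling of animals. Nothing in the labels says that the arrays of a line came from separate animals, so the spread behind the p-values is that among these samples and may be technical.

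Ribosomal proteins are made in amounts matched to each other and to ribosomal RNA, and an unassembled ribosomal protein is usually degraded. Their mRNAs are known for a terminal oligopyrimidine tract, a C at the cap followed by a run of pyrimidines, through which mTORC1 signalling and LARP1 set how strongly they are translated. Some members have roles beside the ribosome: Rps6 is the classical substrate of the S6 kinases, and Rpl11 binds Mdm2 and so acts on p53. An array reads mRNA level only, so translation was not measured.

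The sequence around the annotated start is shown for the 7 of the 8 genes that passed the test and have an entry in the RefSeq promoter table (GRCm38.p6), because this is where the tract lies. Each window runs from 10 bases before the start to 20 bases from it, 5′ to 3′ on the gene's strand, and capitals mark the longest unbroken run of C and T (in Rps7 the first of a pair of equal length). The windows are chr4:86857348-86857377 (minus strand) for Rps6, chr11:114668570-114668599 (plus) for Rpl38 and chr12:28635934-28635963 (minus) for Rps7. For the genes lower in Met1 they are chr9:120127756-120127785 (plus) for Rpsa, chr2:39005112-39005141 (minus) for Rpl35, chr17:33955646-33955675 (minus) for Rps18 and chr5:121204491-121204520 (plus) for Rpl6.
Rps6: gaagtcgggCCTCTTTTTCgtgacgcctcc
Rpl38: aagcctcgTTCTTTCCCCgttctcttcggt
Rps7: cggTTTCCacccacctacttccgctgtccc
Rpsa: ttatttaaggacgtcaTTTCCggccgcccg
Rpl35: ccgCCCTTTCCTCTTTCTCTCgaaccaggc
Rps18: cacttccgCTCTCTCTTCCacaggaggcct
Rpl6: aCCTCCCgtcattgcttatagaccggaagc

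A run of 10 pyrimidines lay across the start of Rps6 and of Rpl38, one of 18 across that of Rpl35 and one of 11 across that of Rps18. The longest run had 5 bases in the Rps7 and Rpsa windows and 6 in the Rpl6 window. Genes of both directions thus had long and short runs. The table held 47 promoters of 39 member genes. The annotated base was a C followed by at least 4 pyrimidines, read on the gene's strand, in 8 of the 47 member promoters (17.0%) and in 2.51% of all 32851 promoters. A run of at least 8 pyrimidines lay in the window of 16 of the 47 (34.0%), against 11.2% of all promoters; this length was chosen after the sequences were seen. A match describes letters near an annotated start and not the start used in these tumours.

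Probe sets entered the test when 3 or more of the 7 arrays read above their own median. This held for 75 of the 96 member probe sets, 74 of which lay above the median on all 7 arrays, and these 75 measure 40 of the 45 genes. Values are log2 probe set summaries as deposited, and each difference is Met1 minus DB7 on that scale with its moderated standard error (SE). A probe set is said to rise, fall or be called where limma's Benjamini-Hochberg adjusted p, over all 11704 tested probe sets, is under 0.05. Gene counts, also those of gene lists, use the brightest tested probe set, by its mean, as the gene's value. A gene is called in the same way, with the adjustment over the 7482 tested genes. Each adjusted p given is the one over probe sets. Of the member probe sets, 30 had a mean above 12, near the top of the scale, where such summaries can compress differences.

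Most ribosomal protein genes differed little between the lines. Of the 75 tested member probe sets, 6 were higher in Met1 and 8 were lower. That is 8% higher against 13.4% of all tested probe sets, and 10.7% lower against 17.6%. In either direction 18.7% of the members were called, against 31.0% of all tested probe sets. The median difference was -0.05 over the members and -0.04 over all tested probe sets, and the members ranged from -0.35 to 0.74. Differences spanned a narrower range than over the whole array, a description with no test: 57 of the 75 (76.0%) lay within 0.2 of 0, against 51.9% of all, and the median size of a difference was 0.118 against 0.190. Replicates were also closer together, with a median SD of 0.0530 in Met1 and 0.117 in DB7 for the members, against 0.0900 and 0.144 for all tested probe sets. The tested members were bright, with a median of 11.59 to 11.83 by array against 6.53 to 6.61 over all probe sets. No set matched for brightness was compared. Counted by gene, 4 of 40 were higher and 4 were lower (10% each way), against 13.0% and 17.9% of 7482 tested genes.

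The lower calls depended on how arrays were scaled and on single arrays. With each array centred on its own median, 6 member probe sets were higher and 1 was lower, in place of 6 and 8, where 15.1% and 14.4% of all tested probe sets were. Quantile normalization moved the lower count the other way. It gave 6 higher and 10 lower, where 14.9% and 16.9% of all tested probe sets were. Leaving out 1 array gave between 2 and 7 lower probe sets and between 4 and 6 higher ones. Calls over the whole array also fell, except without DB7 1, and most without a Met1 array. The 4 higher ones came without Met1 1 or Met1 2, where 8.75% and 9.22% of all tested probe sets were higher. The 2 lower ones came without Met1 1, Met1 2 or Met1 3, where 13.6%, 11.0% and 11.1% of all tested probe sets were lower. There were 3 and 4 lower ones without DB7 2 and DB7 4, where 15.8% and 14.7% were, and 7 without DB7 1, where 18.9% were. Counted by gene, 1 was lower without Met1 1 or Met1 2 and 2 without Met1 3, in place of 4, where 13.9%, 11.3% and 11.6% of all tested genes were lower.

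**Figure D1:**
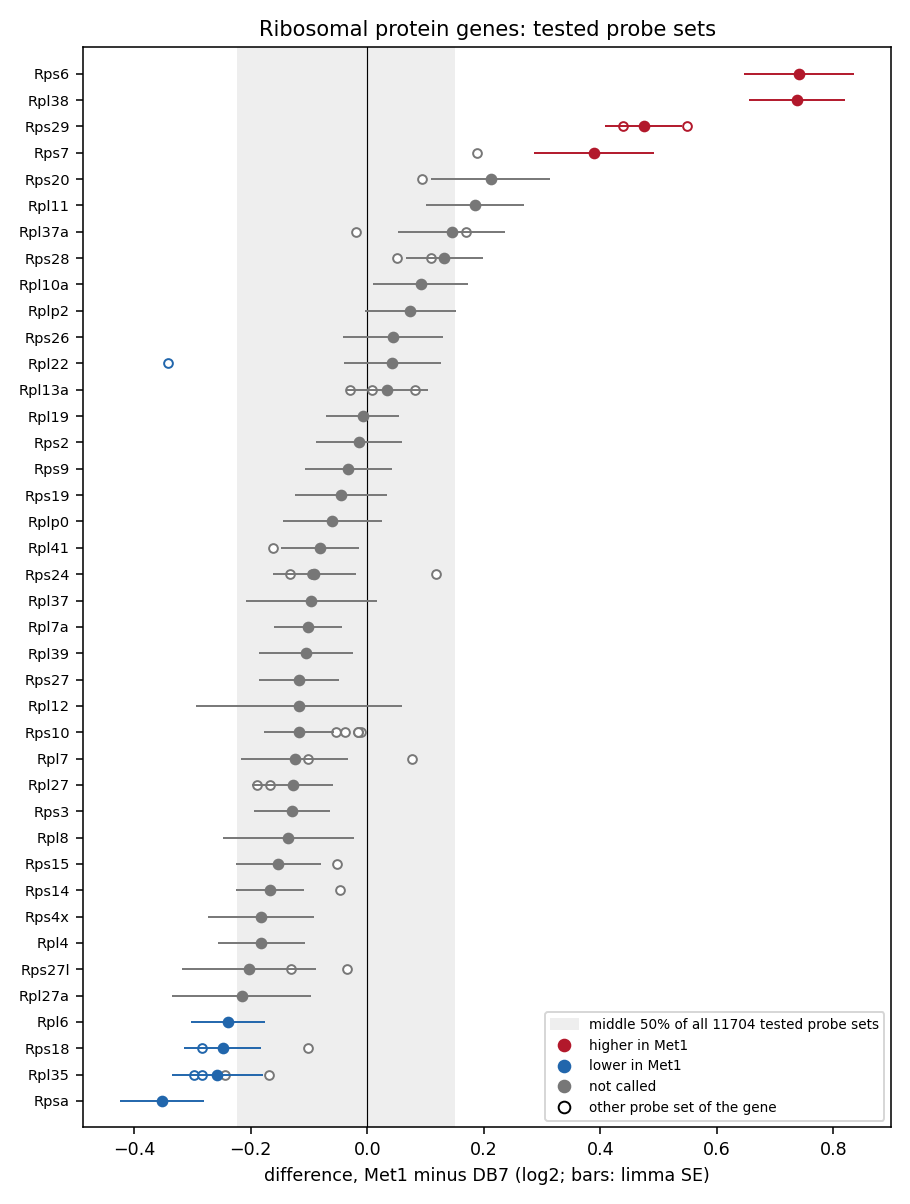
Difference between Met1 and DB7 on the log2 scale for the 40 ribosomal protein genes with a tested probe set; filled points are the probe set with the highest mean, with its limma SE as a bar, open points the gene's other tested probe sets, and the grey band the middle 50% of all 11704 tested probe sets. Rps6 and Rpl38, both at 0.74, stand farthest to the right, and 57 of the 75 probe sets lie within 0.2 of 0.

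The 4 genes that rose in Met1 were Rps6, Rpl38, Rps29 and Rps7. Rps6, the small-subunit protein that S6 kinases phosphorylate, read 7.66, 7.38 and 7.56 in Met1 and 6.75, 6.78, 6.69 and 6.95 in DB7. The lowest Met1 value lay above the highest DB7 value. The means were 7.53 ± 0.14 (SD, n = 3) and 6.79 ± 0.11 (SD, n = 4), a difference of 0.74 (SE 0.09), or 1.67-fold, with a limma adjusted p of 0.00055. All 7 values lay above the median of their array, which ran from 6.53 to 6.61. They lay far under the median of the 75 tested member probe sets, which ran from 11.59 to 11.83 by array. How fully this probe set reads the Rps6 mRNA was not tested. The gene's other probe set was not tested: it read between 3.14 and 3.43 on the 7 arrays, under the median of each, and its difference was -0.02.

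Rpl38, a small protein of the large subunit known for its part in translating Hox mRNAs in the embryo, read 13.33, 13.17 and 13.21 in Met1. In DB7 it read 12.37, 12.63, 12.40 and 12.59. Again the groups did not overlap. The means were 13.24 ± 0.09 (SD, n = 3) and 12.50 ± 0.13 (SD, n = 4), a difference of 0.74 (SE 0.08), or 1.67-fold, with a limma adjusted p of 0.000265. Its only probe set has the suffix _x_at, which Affymetrix gives where some probes may bind other transcripts.

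Rps29, a small-subunit protein with a zinc finger, was measured by 3 tested probe sets, and all 3 rose. The brightest read 13.24, 13.19 and 13.21 in Met1 and 12.70, 12.76, 12.63 and 12.86 in DB7, a difference of 0.47 (SE 0.07), or 1.39-fold, with a limma adjusted p of 0.000872. The other two differed by 0.55 (SE 0.09, limma adjusted p = 0.00267) and 0.44 (SE 0.12, limma adjusted p = 0.0215). The groups did not overlap on any of the 3. All 3 are _x_at probe sets, so they may share probes that bind the same other transcripts. The last of them lost its call without Met1 1 (0.42, limma adjusted p = 0.0788), Met1 2 (0.47, 0.0589) or Met1 3 (0.43, 0.0725).

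Rps7, a small-subunit protein that, like Rpl11, can bind Mdm2, read 12.95, 12.85 and 12.79 in Met1. In DB7 it read 12.25, 12.69, 12.40 and 12.56, so that DB7 2 came within a narrow margin of the Met1 arrays without overlap. The difference was 0.39 (SE 0.10), or 1.31-fold, with a limma adjusted p of 0.0199. Without Met1 1 (0.35, adjusted p = 0.0857), Met1 2 (0.40, 0.0652) or DB7 3 (0.36, 0.0526) it did not pass. A second Rps7 probe set differed by 0.19 (SE 0.09, limma adjusted p = 0.148) and did not pass. The calls of Rps6, Rpl38 and the brightest Rps29 probe set were kept in each of the 7 fits that left out 1 array.

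The 4 genes that fell in Met1 were Rpsa, Rpl35, Rps18 and Rpl6. Rpsa encodes a small-subunit protein also known as a laminin receptor. It read 12.10, 12.07 and 12.07 in Met1 and 12.32, 12.36, 12.50 and 12.53 in DB7, without overlap. The difference was -0.35 (SE 0.07), so that DB7 was 1.28-fold higher, with a limma adjusted p of 0.00631. The call was kept in each of the 7 fits that left out 1 array and with each array centred on its median.

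Rps18, which sits in the head of the small subunit, read 12.43, 12.41 and 12.42 in Met1 and 12.68, 12.76, 12.55 and 12.70 in DB7 on its brightest probe set. Met1 lay below DB7 on every array, by 0.25 on average (SE 0.07, limma adjusted p = 0.0202). A second probe set passed with -0.28 (SE 0.08, limma adjusted p = 0.0237), and the remaining one with -0.10 did not (adjusted p = 0.368). Without Met1 1, Met1 2 or Met1 3 the brightest probe set stayed at -0.25, -0.24 and -0.25 but no longer passed, with limma adjusted p of 0.0644, 0.0756 and 0.0666. With arrays centred on their medians it stood at -0.21 (adjusted p = 0.0585).

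Rpl6, a large-subunit protein, read 12, 12.03 and 12 in Met1 and 12.16, 12.28, 12.23 and 12.31 in DB7. The groups did not overlap, and the difference was -0.24 (SE 0.06, limma adjusted p = 0.0203). Its call was lost without Met1 1 (adjusted p = 0.0728), Met1 2 (0.0619) or Met1 3 (0.0720), and with median centring (-0.20, 0.0542).

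Rpl35, which lies near the exit of the peptide tunnel of the large subunit, had 5 tested probe sets, and all 5 read lower in Met1, by 0.17 to 0.30. Of these, 3 passed. The brightest read 11.96, 12.04 and 12.21 in Met1 and 12.27, 12.34, 12.28 and 12.42 in DB7, a difference of -0.26 (SE 0.08, limma adjusted p = 0.0347). It was called in 2 of the 7 fits that left out 1 array. The adjusted p was 0.141 without Met1 1, 0.123 without Met1 2, and 0.0648, 0.0538 and 0.0714 without DB7 2, DB7 3 and DB7 4. With median centring the difference was -0.22 (adjusted p = 0.0779).

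**Figure D2:**
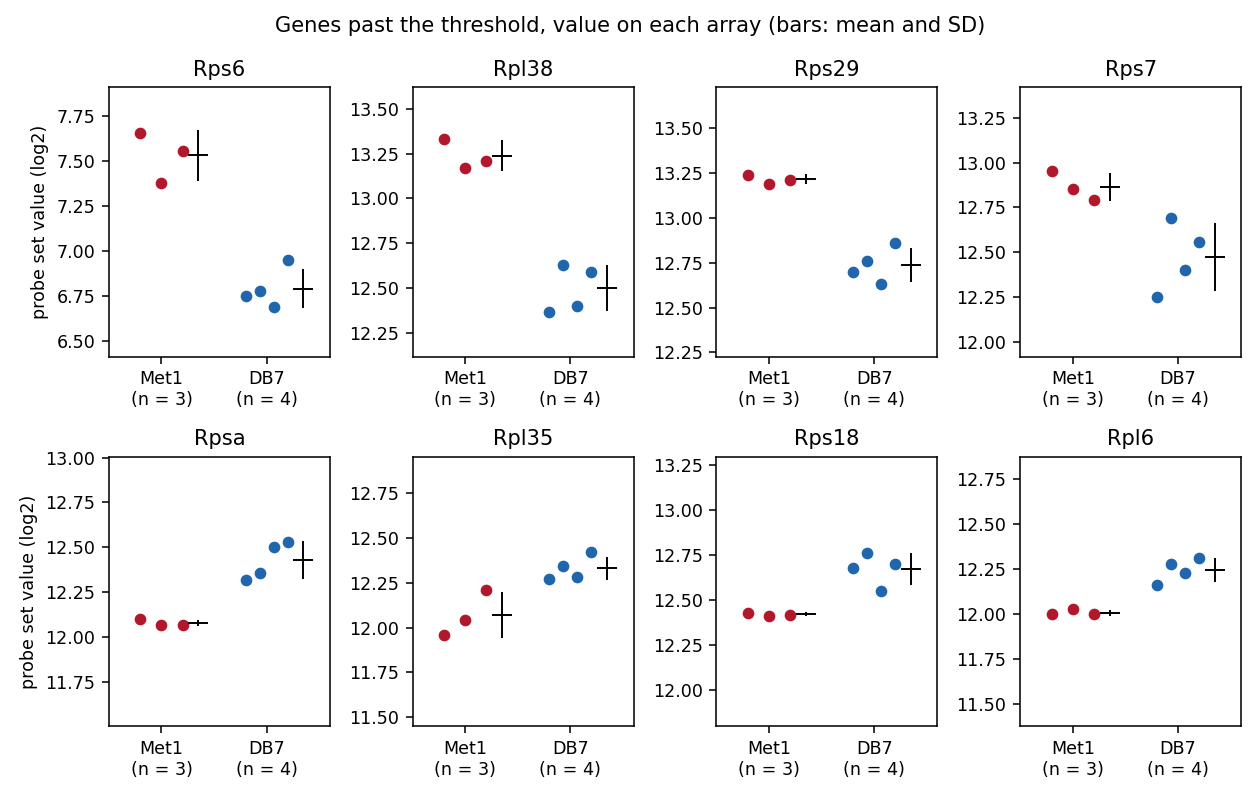
Deposited log2 value on each array for the brightest tested probe set of the 8 genes that passed the test, with Met1 (n = 3) in red, DB7 (n = 4) in blue, and the mean and SD beside each group. In none of the 8 panels do the groups overlap; the value axes cover equal spans but start at different values.

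Of the 75 tested member probe sets, 8 had every Met1 value above every DB7 value, which is 10.7% against 16.7% of all tested probe sets. In 15 (20%) every Met1 value lay below every DB7 value, against 22.7% of all. Thus some probe sets without overlap did not pass. Rps14, a core protein of the small subunit, is an example: its brightest probe set read 12.58, 12.53 and 12.50 in Met1 and 12.66, 12.73, 12.66 and 12.76 in DB7. The difference of -0.17 (SE 0.06) had a limma adjusted p of 0.0594 and did not pass.

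By subunit, with no test of the difference, the tested probe sets had a median of -0.10 (large) and -0.04 (small). Of 21 large-subunit genes, 1 was higher and 2 were lower, with a median of -0.10. Of 19 small-subunit genes, 3 were higher and 2 were lower, with a median of -0.09. That is 4.8% higher and 9.5% lower (large) and 15.8% and 10.5% (small), against 13.0% and 17.9% of all tested genes. The acidic stalk protein gene Rplp0, often used as a reference for normalization, read 12.36, 12.42 and 12.38 in Met1 and 12.40, 12.56, 12.26 and 12.57 in DB7. Its difference was -0.06 (SE 0.09, limma adjusted p = 0.636), and the groups overlapped. Rpl11 differed by 0.18 (SE 0.08, limma adjusted p = 0.130), and DB7 4 at 11.77 lay within the Met1 range of 11.76 to 11.86. Rpl37 read 8.42 on all 3 Met1 arrays and from 8.31 to 8.76 in DB7.

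Where a gene had several tested probe sets, they did not pass in opposite directions. Of 17 such genes, 12 had no probe set called, 1 (Rps29) had all called and 4 (Rpl22, Rpl35, Rps7 and Rps18) had some. Rpl22 had the widest gap. Its brighter probe set, which stands for the gene, read 10.05, 9.98 and 10.10 in Met1 and 10.04, 10.04, 9.87 and 10.05 in DB7, a difference of 0.04 (SE 0.08, adjusted p = 0.735). The other, with the suffix _s_at, read 8.67, 8.29 and 8.38 in Met1 and 8.85, 8.91, 8.65 and 8.74 in DB7. It differed by -0.34 (SE 0.11, limma adjusted p = 0.0475), with Met1 1 and DB7 3 overlapping. That call was lost without Met1 2 (-0.26, adjusted p = 0.188), Met1 3 (-0.31, 0.162), DB7 1 (-0.32, 0.0790), DB7 2 (-0.30, 0.0934) or DB7 4 (-0.36, 0.0721).

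Of the paralogs among the members, Rpl3l and Rpl39l were not tested and Rps27l did not pass. Rpl3l, the striated-muscle form of Rpl3, read from 4.14 to 4.44 on the 7 arrays, with a difference of -0.07, and Rpl39l, known from testis, read from 3.88 to 4.19, with a difference of -0.01. Both lay under the median of every array. Rps27l, a paralog of Rps27 and a p53 target, had 3 tested probe sets, at -0.20, -0.13 and -0.03, and did not pass (limma adjusted p = 0.216, 0.567 and 0.841). The value nearest 0 turned to 0.012 with quantile normalization, to 0.0030 with median centring and to 0.063 without DB7 2, and the -0.13 turned to 0.022 without DB7 2. No probe set with Rpl5, Rps27a or Rpl10l as its single symbol was used here.

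The 21 member probe sets that were not tested differed by -0.21 to 0.45. They left 5 genes without a value that was tested: Rpl3l, Rpl39l, Rps4l, Rpl14 and Rps25. In a fit with no filter, in which 7.92% of all probe sets were higher, 2 of the 21 passed, both upward. A probe set of Rps24 differed by 0.43 (SE 0.11, limma adjusted p = 0.0275 in that fit), whereas the gene's 4 tested probe sets lay between -0.13 and 0.12. The single probe set of Rps25 read 6.49, 6.33 and 6.55 in Met1 and 5.99, 6.20, 5.93 and 6.20 in DB7, a difference of 0.38 (SE 0.10, limma adjusted p = 0.0285 in that fit). Among the 87 tested probe sets with several symbols, 5 were higher and 6 lower, with a median of -0.03. That is 12.6% called, against 31.0% of all tested probe sets.

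The suffix of a probe set bears on which transcripts it reads. Of the 96 member probe sets, 40 end in _x_at, 26 in _a_at, 2 in _s_at and 28 in plain _at. Of the 12 tested ones with a plain suffix, 1 (Rps6) was higher and 1 (Rpsa) lower. That is 8.3% each way, against 13.4% and 17.6% of all tested probe sets. Many ribosomal protein genes have processed pseudogenes, and how far the other probe sets read those was not tested.

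Within DB7 the ribosomal protein genes moved together from array to array. Measured as each probe set's deviation from its mean over the 7 arrays, the median over the 75 was -0.04 on DB7 1, 0.06 on DB7 2, -0.03 on DB7 3 and 0.12 on DB7 4. On the Met1 arrays it was -0.01, -0.03 and -0.00. DB7 4 held the highest DB7 value for 45 of the 75 and DB7 2 for 28, and DB7 1 held the lowest for 43 and DB7 3 for 29. The step between DB7 1 and DB7 4 was thus larger than the median difference between the lines. Since the 75 probe sets share their arrays, they are not independent readings of this pattern. Array medians over all probe sets were 6.60, 6.56, 6.61 and 6.61 for DB7 1 to DB7 4, in no such order. Some genes of the related lists below, such as Eef1b2 and Ncl, also read higher on DB7 2 and DB7 4 than on DB7 1 and DB7 3. Others, such as Eif4e, did not. Whether the pattern is particular to ribosomal protein genes was not tested.

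**Figure D3:**
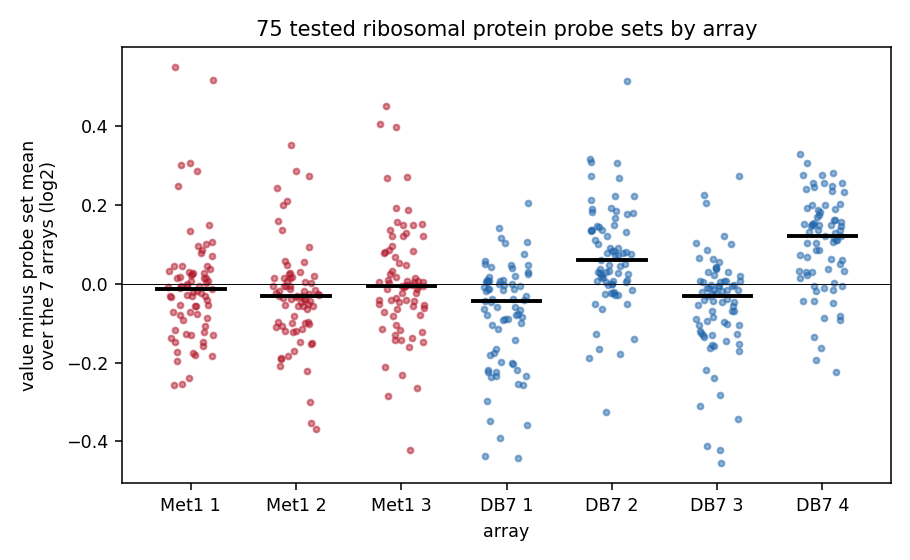
Each point is 1 of the 75 tested ribosomal protein probe sets on 1 array, as its log2 value minus its mean over the 7 arrays; black lines are the array medians. DB7 4 (median 0.12) and DB7 2 (0.06) sit above DB7 1 (-0.04) and DB7 3 (-0.03), and the 3 Met1 medians lie between -0.03 and -0.00.

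Marker genes of several cell types and states also differed between the lines or arrays, and their part in the ribosomal protein values was not tested; fewer cells of a type and less RNA per cell cannot be told apart in whole tumour. Marker lists were summed on the linear scale and are given as log2. Proliferation genes (5 of 6 with a probe set used here) gave 10.70 to 10.78 in Met1 and 11.93 to 12.32 in DB7, and all 5 fell in Met1. Milk genes gave 14.37 to 14.77 and 11.72 to 12.91, and the 3 tested rose in Met1, with Csn2 under the median on every array; Wap, 1 of the 3, entered the test through the 3 Met1 arrays alone. Luminal markers gave 13.05 to 13.38 and 13.72 to 13.95, and 3 of 4 tested fell. B cell markers stood at 10.97 on DB7 1 and 11.82 on DB7 4 against 9.39 to 9.73 on the other arrays; Ighm read 10.44 and 11.38 on these, with Cd79a, Cd79b and Pou2af1 under the median on every array. Of the remaining lists, skeletal muscle alone did not overlap between the lines. Fibroblast markers ran from 12.75 to 13.57 in Met1 and from 11.58 to 13.75 in DB7 (0 of 7 passed), macrophage from 11.67 to 11.96 and 11.09 to 12.05 (1 of 6, Cd14, rose), and endothelial from 9.32 to 9.67 and 9.10 to 9.73 (0 of 4). Basal markers ran from 9.40 to 9.75 and 8.89 to 9.51 (0 of 2, Krt14 and Trp63 under the median), adipocyte from 8.17 to 10.34 and 7.93 to 10.43 (0 of 2), and T and NK cell from 8.70 to 8.92 and 8.78 to 9.09 (1 of 2, Cd3d, fell). Neutrophil markers ran from 7.72 to 7.90 and 7.48 to 7.92 with S100a8 and S100a9 under the median and none of the list tested. Skeletal muscle markers stood at 7.78 to 8.04 and 7.54 to 7.68, with Acta1, Ckm and Myh4 under the median and the only tested one, Mb, higher in Met1; Mb entered the test through the 3 Met1 arrays alone.

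With DB7 1 and DB7 4 both left out, 6 ribosomal protein probe sets were higher and 2 were lower, in place of 6 and 8; of all tested probe sets 14.5% were higher and 16.0% lower in that fit.

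The members were set beside the genes next to them on the chromosome. For each of the 40 genes, up to 5 tested genes on each side were taken, ribosomal protein genes left out, in the order of the RefSeq table of assembly GRCm38.p6, used for order only. The median difference of the neighbours exceeded 0.2 beside 3 genes, Rps6 (0.30), Rpl38 (0.27) and Rps7 (0.23), and all 3 were among the 4 that rose. Rps20 (0.199, own difference 0.21) and Rpl39 (0.179, own difference -0.11) lay just under this mark, and neither passed. Of the 33 genes whose neighbours had a median within 0.2 of 0, 1 rose (Rps29, -0.01) and 4 fell. Of the 4 with a neighbour median under -0.2, 0 passed by limma.

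Beside Rpl38, 5 of 10 neighbours were higher in Met1 and 1 was lower; 13.0% of all tested genes were higher. They were the zinc transporter Slc39a11 (1.63), Ttyh2 (1.19), Fam104a (1.02), Gprc5c (0.65) and Cog1 (0.34), and Sox9 differed by -0.51. Beside Rps6, 4 of 10 were higher and 1 was lower. The cell cycle inhibitor Cdkn2b stood at 1.77, the lipid droplet gene Plin2 at 0.64, Klhl9 at 0.54 and Rraga, an activator of mTORC1, at 0.43, while Mtap stood at -0.97. Beside Rps7, 5 of 10 were higher and 0 lower by limma: the interferon-induced Rsad2 (1.34) and Cmpk2 (0.60), Id2 (0.80), Trappc12 (0.62) and Adi1 (0.26). Beside Rps29, 3 were higher and 3 lower. These are log2 differences, Met1 minus DB7.

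Across the 40 genes, the member's difference and its neighbours' median had a Pearson r of 0.63 and a Spearman rho of 0.54. Without Rps6 and Rpl38, r and rho were both 0.46. This is a description across genes in 1 set of arrays, and genes are not independent replicates: some members share neighbours, and all share the 7 arrays.

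**Figure D4:**
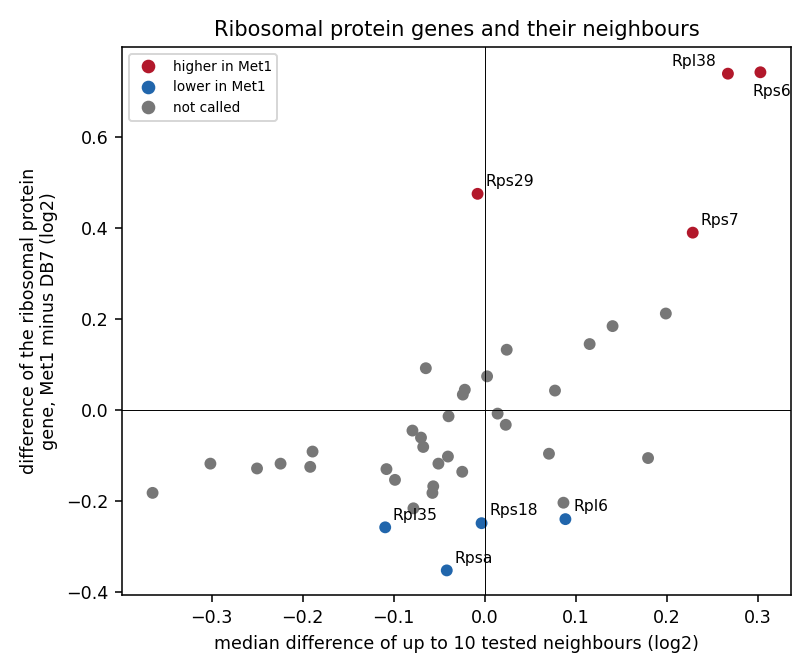
Difference of each of 40 ribosomal protein genes (vertical, log2, Met1 minus DB7) against the median difference of up to 10 tested neighbouring genes (horizontal, log2); red and blue points passed the test. Rps6, Rpl38 and Rps7 lie to the right of 0.2, Rps29 rose beside neighbours with a median of -0.01, and the 4 genes that fell lie between -0.11 and 0.09 on the horizontal axis.

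Other genes of the translation machinery were counted in the same fit; 30.9% of all tested genes were called. Of 4 tested cytosolic ribosomal proteins with other names or near relatives, 1 fell. This was Rpl22l1, the paralog of Rpl22, at -0.42 (SE 0.14, limma adjusted p = 0.0451), with Met1 3 and DB7 1 equal at 10.03. Rps3a1 (-0.16), Rpl7l1 (-0.01) and Fau (-0.01) did not pass. By limma 0 of the 4 were called without Met1 1, without Met1 2, without DB7 2, without DB7 4 or with median centring, and 2 were called without DB7 1.

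Of 32 translation factors, 1 rose and 7 fell, with a median of -0.07. The termination factor Etf1 differed by -0.72 (limma adjusted p = 0.00215), the cap-binding Eif4e by -0.64 (0.00817), Eif2s3x, a subunit of the initiator tRNA carrier, by -0.45 (0.00647) and Naca, which binds nascent chains, by -0.34 (0.0177). The elongation factor Eef1a1, itself a gene with an oligopyrimidine tract, did not pass at -0.01. The number called fell to 3 without Met1 1 or Met1 3 and to 5 without Met1 2 or DB7 3. Calls over all tested genes also fell in these fits. Without Met1 1, Met1 3, Met1 2 and DB7 3, 8.56%, 8.88%, 9.24% and 11.2% of them were higher. The lower shares were 13.9%, 11.6%, 11.3% and 13.9%.

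Of 12 tested genes on the list of mTORC1 and S6 kinase signalling, 1 rose and 0 fell by limma, with a median of 0.04. The only gene called was Rps6ka3, a kinase of the RSK family that can phosphorylate the Rps6 protein. It read 8.62, 8.44 and 8.61 in Met1 and 7.60, 7.70, 7.58 and 7.17 in DB7. The difference was 1.04 (SE 0.13), or 2.06-fold, with a limma adjusted p of 0.000425. None of the other tested genes on the list passed, among them Eif4ebp1 (-0.29), Pdcd4 (-0.21) and Larp1 (0.11).

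Of 22 ribosome biogenesis genes, 1 rose and 3 fell, with a median of -0.06. Myc, a driver of ribosome production, rose by 0.73 (SE 0.20, limma adjusted p = 0.0248), while the snoRNP protein Nop58 (-0.70, 0.00245), nucleophosmin, Npm1 (-0.42, 0.0306), and Tsr1 (-0.44, 0.0487) fell. The number called ranged from 1 (without Met1 1, Met1 3 or DB7 2) to 8 (without DB7 1), with 2 without Met1 2, DB7 3 or DB7 4. Over all tested genes, 8.56% (without Met1 1) to 13.4% (without DB7 1) were higher in these fits. The lower share ran from 11.3% (without Met1 2) to 19.1% (without DB7 1).

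The mitochondrial ribosomal proteins form a separate ribosome inside the organelle. The list was taken by Mrpl and Mrps symbols, which do not show that each gene is part of that ribosome. Of 72 tested, 4 rose and 27 fell (43.1% called, 37.5% lower), with a median of -0.14, where 17.9% of all tested genes were lower. Mrpl18, 1 of the 27, entered the test through the 4 DB7 arrays alone. Mrps7 stood at -1.05 (limma adjusted p = 0.000321) and Mrps6 at -0.64 (0.00109), whereas Mrpl58 (1.19, 4.67e-05) and Mrpl38 (1.07, 0.000191) rose. Whether this share differs from that of the cytosolic members was not tested. The number called was 20 without Met1 2 and 17 without Met1 3, in place of 31. Calls over all tested genes also fell. Without Met1 2, 9.24% were higher and 11.3% lower, and without Met1 3, 8.88% and 11.6%, in place of 13.0% and 17.9%.

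**Figure D5:**
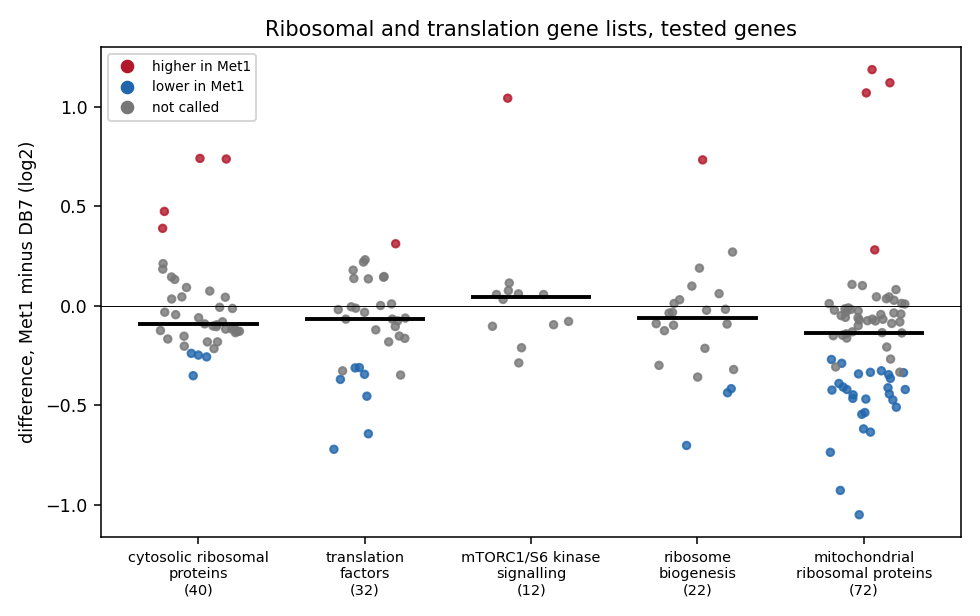
Difference between Met1 and DB7 on the log2 scale for each tested gene of the cytosolic ribosomal proteins (40) and 4 related lists (32, 12, 22 and 72 genes), with the list median as a black line; red and blue points passed the test. The medians lie between -0.14 for the mitochondrial ribosomal proteins and 0.04 for mTORC1 and S6 kinase signalling.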

How the data were processed

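The deposited table holds 1 log2 value per probe set and array; the log base was judged from the values. RMA and MAS5 appear in the submitters' processing notes with no role given, and the sources used here state no further step. Values were used as deposited. The 64 control probe sets were left out. Gene symbols came from the platform annotation (20380 probe sets with 1 symbol, 691 with several, 1555 with none), and all 45 member genes matched the RefSeq table.

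The lines were compared in R 4.3.3 with limma 3.58.1 (a linear model with group only, moderated with an intensity trend, two-sided, Benjamini-Hochberg, threshold 0.05) on all 11704 tested probe sets; the script was tested on simulated data. No depth applies; the number of arrays limits precision. Arrays correlated at 0.983 to 0.989 within Met1, 0.962 to 0.980 within DB7 and 0.886 to 0.905 between them.

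The members, the 5 related lists, the 12 marker lists, the alternatives and the rule for naming genes were chosen with earlier results of these data known. The rule names up to 10 called genes in each direction by size, genes with probe sets called in opposite directions, 4 paralogs, 6 genes with known roles, and up to 4 genes of each related list by p; the marker genes, Rps14, Rpl37, Rps24, Rps25, Eef1a1 and the neighbours were named after their values were seen. Alternatives were scaling, filters, trend, array weights, arrays left out, a replicate block, plain-suffix probe sets and the mean of a gene's probe sets.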

Additional observations from a re-analysis of the deposited data

Results flagged for a closer look

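The brighter Rpl22 probe set read 9.87 on DB7 3, the lowest DB7 value, against 10.04 to 10.05 on the other 3 DB7 arrays. Its gap to the nearest of the others was 0.946 of the group's range, above the critical value of 0.829 for 4 samples. Of 13 results looked at in this way, 1 was past it. They were the probe sets of 12 named genes and the median of the tested members by array. Of all 75 tested member probe sets 6 were past it. Chance puts about 1 group in 20 past this value.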

How the results depend on the processing

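The directions of the 8 called genes held under the alternatives that measured them (the plain-suffix one measured Rps6 and Rpsa), with Rps6 between 0.68 and 0.82, Rpl38 between 0.69 and 0.78 and Rpsa between -0.39 and -0.31. The calls of Rps6, Rpl38, Rps29 and Rpsa held under each alternative that measured them. The median over the tested members stayed between -0.08 and -0.02 with 1 array left out. With median centring, 1 member probe set and 1 gene were lower in place of 8 and 4, where 14.4% of all tested probe sets and 14.8% of genes were. Quantile normalization gave 10 and 5, where 16.9% and 17.2% were. With median centring 0 of the otherwise-named ribosomal proteins were called. With no filter, 3 member probe sets were lower, where 9.87% of all probe sets were, and 0 of that list were called. Array weights also gave 0 for the list. With DB7 1 and DB7 4 left out, 2 probe sets and 2 genes were lower, where 16.0% of all tested probe sets and 16.3% of genes were. In that fit 2 genes on the mTORC1 and S6 kinase list were called in place of 1. With plain-suffix probe sets only, 12 were tested, and 1 probe set and 1 gene were called each way, with 0 otherwise-named, 1 biogenesis and 20 mitochondrial genes. Of all tested genes 12.8% were higher and 18.0% lower in that fit. The stricter filter left 2 biogenesis genes, and the mean over a gene's probe sets left 5 translation factors. With 1 array left out, higher probe sets ranged from 4 to 6 and lower from 2 to 7, higher genes from 3 to 4 and lower from 1 to 4. The lists ranged from 0 to 2 (otherwise-named), 3 to 9 (translation factors), 1 to 8 (biogenesis) and 17 to 31 (mitochondrial). Over all tested genes, 8.56% to 13.4% were higher and 11.3% to 19.1% lower in these fits. Rpl22 turned to -0.0021 without DB7 3 (0.074 without Met1 2) and to -0.15 as the mean of its probe sets. The Rps27l probe set nearest 0 turned to 0.012 with quantile normalization and 0.0030 with median centring, and ranged from -0.085 (without DB7 4) to 0.063 (without DB7 2). Another Rps27l probe set ranged from -0.21 to 0.022 without the same arrays. For these changes the cause was not tested, also where fewer probe sets or arrays were used.

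With the replicate number as a block (6 arrays in 3 pairs), 6 member probe sets were higher and 1 lower. Of all tested probe sets 11.2% and 12.7% were. By gene, 4 were higher and 1 lower, where 10.8% and 12.6% of all tested genes were. The lists had 0 otherwise-named, 2 biogenesis and 19 mitochondrial genes called. Same-numbered arrays had deviations correlated at -0.17, -0.05 and 0.02, within the range of differently numbered ones (-0.23 to 0.21). The labels give only a number, and so few values cannot show whether same-numbered arrays were handled together.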
